A study of Mus musculus with 8 samples.

Results

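Alpha intercalated cells are acid-secreting cells of the connecting tubule and collecting duct. Here they are the 827 of 77393 cells (1.07%) that the authors placed in the class A-IC in their deposited cell table, spread over 8 single-cell RNA sequencing libraries of whole mouse kidney. The obstructed group was 2 samples of unilateral ureteric obstruction (UUO), a model of kidney injury in which the left ureter is ligated and urine can no longer drain. It was set against 6 Control samples. All animals were C57BL/6 mice with an age label of 7 weeks and no transgene named. The labels carry the same text, ligation with killing on day 7, for every sample, so the Control samples are known by their titles and disease label alone, and the handling of those animals is not known here. Since nothing in the labels ties each sample to an animal of its own, every p-value below sets a difference against sample-to-sample spread that could be technical.

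An alpha intercalated cell pumps protons into the urine with a vacuolar H+-ATPase in its luminal membrane and returns bicarbonate to the blood through the chloride/bicarbonate exchanger AE1. AE1 is encoded by Slc4a1, and Atp6v1g3 encodes a subunit of the proton pump that is typical of intercalated cells. Kit, a receptor tyrosine kinase, is another transcript used to mark the class. Beta intercalated cells (class B-IC) run the opposite transport and secrete bicarbonate, and principal cells (CD PC) of the same duct take up sodium and water. Intercalated cells are rich in mitochondria, which supply the pump with ATP. Gene-level counts were not analysed here, so the class name was not checked against Slc4a1, Kit or Atp6v1g3, and everything below rests on cell numbers, molecules per cell and positions in the embedding.

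The A-IC cells numbered 44 and 88 in UUO samples 1 and 2, against 34, 69, 72, 157, 147 and 216 in Control samples 1 to 6. Libraries held 2263 to 18393 cells with median UMIs (unique transcript molecules) per cell of 1292 to 2944. Controls 3 and 4 did not differ in their class numbers by a chi-square test (p = 0.0509), while every other pair of Control samples did. This p lies just above the cut of 0.05 and does not show that they are a single preparation. On this rule the cells of Controls 3 and 4 were pooled and counted as 1 sample. That left n = 2 UUO and n = 5 Control samples and 21 ways of choosing the UUO pair, so no two-sided exact permutation test could go below p = 0.0476. Controls 3 and 4 shared 10 barcodes in all, no barcode occurred in A-IC of more than 1 library, and 0 cells matched a cell of another library in barcode, UMIs and genes. Of the A-IC cells, 70 carried a barcode that some other library also used, always on a cell with different counts.

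A-IC cells made up a smaller part of the cells in both UUO samples than in any Control sample. They were 0.239% (exact 95% binomial interval 0.174 to 0.321) and 0.681% (0.546 to 0.838) of all cells in UUO samples 1 and 2. The Control shares were 0.945%, 1.07%, 0.909% and 1.58% in samples 1, 2, 5 and 6 and 3.69% in the pooled Controls 3 and 4. The sample values of the groups did not overlap, and the interval of UUO 1 met no Control interval. That of UUO 2 overlapped those of Control 1 (0.655 to 1.318), Control 2 (0.8355 to 1.356) and Control 5 (0.769 to 1.068). The UUO samples differed from each other by more than their counting intervals. Control samples 3 and 4, at 3.18% (2.498 to 3.99) and 3.98% (3.39 to 4.63), each stood above every other library. Intervals for single samples are Clopper-Pearson and cover counting error only.

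Averaged over samples, A-IC made up 0.460% ± 0.312 of UUO cells (SD, n = 2) and 1.64% ± 1.18 of Control cells (SD, n = 5), a log2 odds difference of -1.81 (95% interval -3.47 to -0.14). In the limma fit across all 28 classes the adjusted p was 0.0623, so A-IC was not called lower, whereas 8 of the 28 classes (28.6%) were, B-IC and the authors' class Trans IC among them, and 6 (21.4%) were called higher. The exact permutation p for A-IC was 0.0952. The call depended on how the samples were counted and scaled. With Controls 3 and 4 as separate samples the difference was -2.03 (limma adjusted p 0.0383), without Control 5 it was -1.97 (0.0463), and edgeR with TMM scaling gave -2.14 (0.015). Without UUO 1 the difference shrank to -1.05 (adjusted p 0.414), and without UUO 2 it was -2.56 (0.0492). In both of these fits UUO is 1 sample, assumed to vary like the Control samples, since the spread comes from those and from limma's prior.

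**Figure D1:**
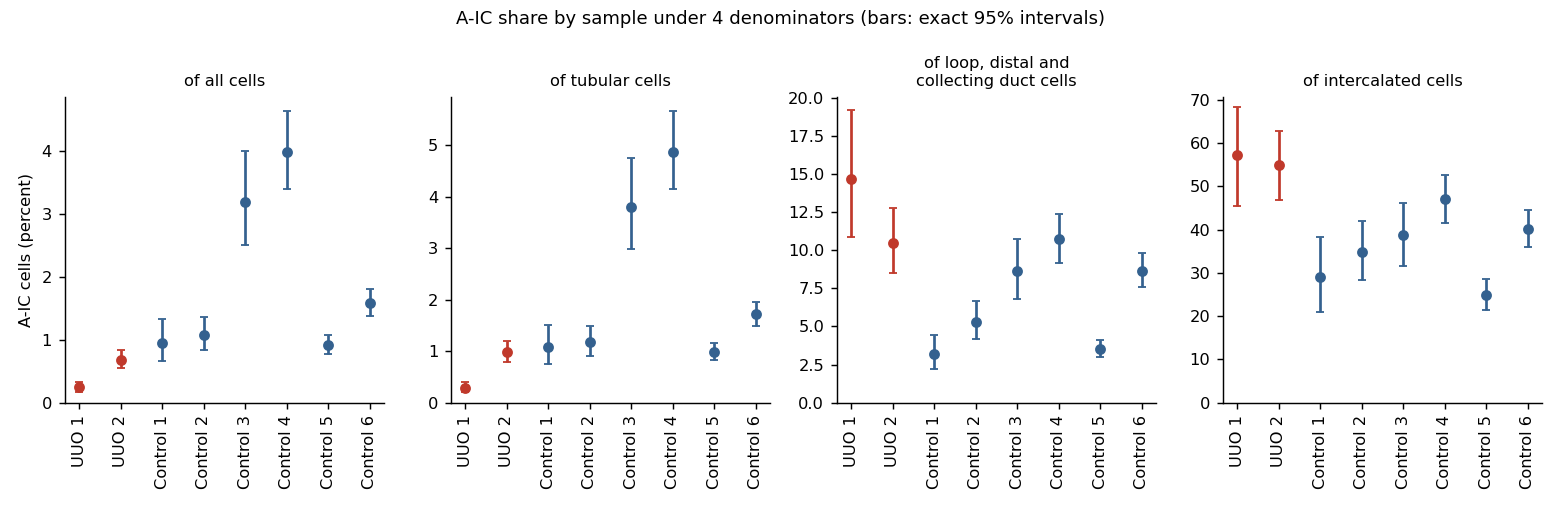
Percent of cells assigned to A-IC in each sample (UUO red, Control blue) as a share of all cells, tubular cells, loop, distal and collecting duct cells, and intercalated cells. Points are sample values and bars exact 95% binomial intervals; UUO 1 and 2 are lowest of all cells at 0.239% and 0.681% and highest of intercalated cells at 57.1% and 55.0%.

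The A-IC cells were next counted against the tubule alone, which leaves out leukocytes, endothelium and podocytes but keeps the proximal tubule (PT). They were 0.291% and 0.972% of tubular cells in UUO samples 1 and 2, against 1.09%, 1.17%, 4.47%, 0.979% and 1.71% in Controls 1, 2, 3 with 4, 5 and 6. UUO 2 and Control 5 were almost level, so the separation there rested on UUO 1. The log2 odds difference was -1.58 (95% interval -3.13 to -0.02) and did not pass among the 10 tubule classes (limma adjusted p 0.0584). In this fit 6 of the 10 classes (60%) were called lower and 1 (10%), PT, higher, and A-IC had a smaller drop than any of those 6. The sign of the A-IC value rested on the scale, since edgeR with TMM scaling gave 0.64 and centred log-ratios gave 0.26.

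With PT cells out of the denominator the order of the groups turned. A-IC cells were 8.22% and 9.06% of the tubular cells outside PT in UUO samples 1 and 2, and 3.05%, 5.01%, 9.80%, 3.07% and 8.28% in Controls 1, 2, 3 with 4, 5 and 6. The group ranges overlapped, because the pooled Controls 3 and 4 and Control 6 lay near the UUO values. The difference was 0.78 in log2 odds (95% interval -0.54 to 2.09, limma adjusted p 0.266), while 2 of the 9 classes (22.2%) were called lower, B-IC (-0.88) and the connecting tubule class CNT (-1.30), and 1 (11.1%), Profibrotic Tubules, was called higher. The authors' classes Prolif PT and Profibrotic Tubules belong to this denominator and made up 48.1% and 14.9% of its other cells in UUO samples 1 and 2, against 1.99% to 13.5% in the Control samples. Their part in the result was not tested.

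Counted against the loop, distal tubule and collecting duct classes only, a denominator chosen after the data were seen, A-IC cells were 14.7% and 10.5% of the cells in UUO samples 1 and 2. The Control values were 3.21%, 5.30%, 9.97%, 3.53% and 8.64%, all below both UUO values once Controls 3 and 4 were pooled. Control 4 alone held 10.7%, just above UUO 2. The log2 odds difference of 1.27 (95% interval 0.22 to 2.33) had a limma adjusted p of 0.0773, and 0 of the 7 classes (0%) were called in either direction, with limma's unadjusted p for A-IC at 0.0221. The exact permutation p was 0.0952.

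**Figure D2:**
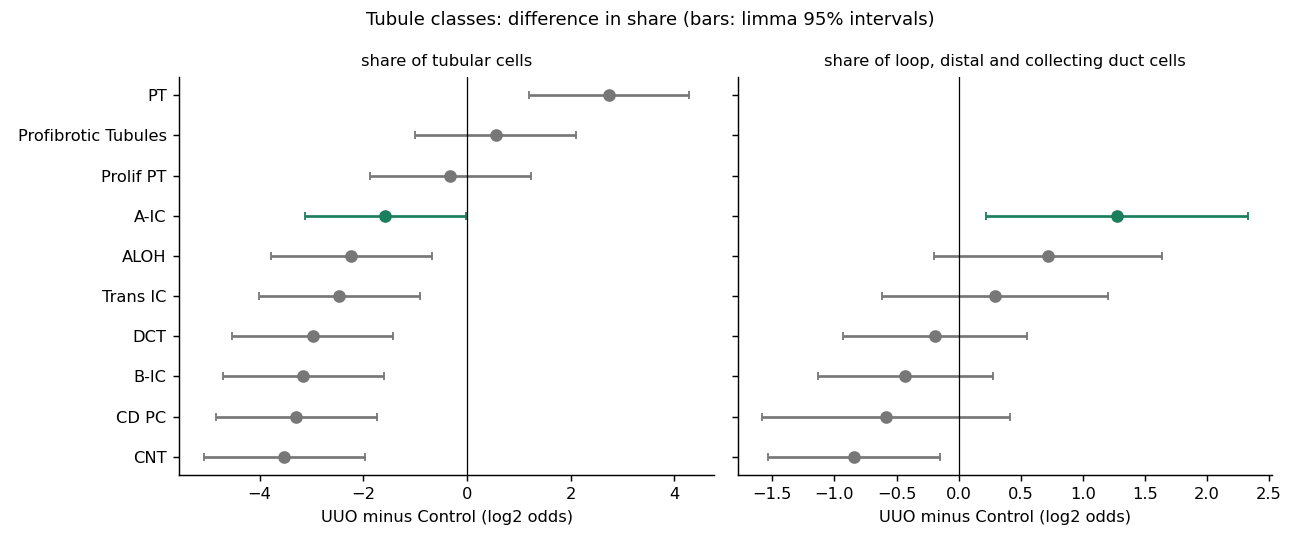
UUO minus Control difference in log2 odds for each tubule class, as a share of tubular cells (left) and of loop, distal and collecting duct cells (right). Points are limma estimates with 95% intervals, A-IC in green; A-IC lay at -1.58 on the left and at 1.27 on the right.

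The groups also did not overlap inside the intercalated family, where A-IC took a larger share in UUO. A-IC cells were 57.1% (44 of 77; exact 95% interval 45.4 to 68.4) and 55.0% (88 of 160; 47.0 to 62.9) of the A-IC, B-IC and Trans IC cells in UUO samples 1 and 2. In Control samples 1, 2, 5 and 6 they were 29.1%, 34.8%, 24.96% and 40.2%, and in the pooled Controls 3 and 4 they were 44.0%. By these sample values A-IC held a majority of the intercalated cells in both UUO samples. It was short of a majority in every Control sample, Controls 3 and 4 taken singly included (38.7% and 47.0%). The intervals of both UUO samples and of Control 4 (41.55 to 52.51) cover shares on either side of a majority. Means over samples were 56.1% ± 1.51 for UUO (SD, n = 2) and 34.6% ± 7.82 for Control (SD, n = 5). The log2 odds difference was 1.28, at the smallest possible exact p of 0.0476.

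**Figure D3:**
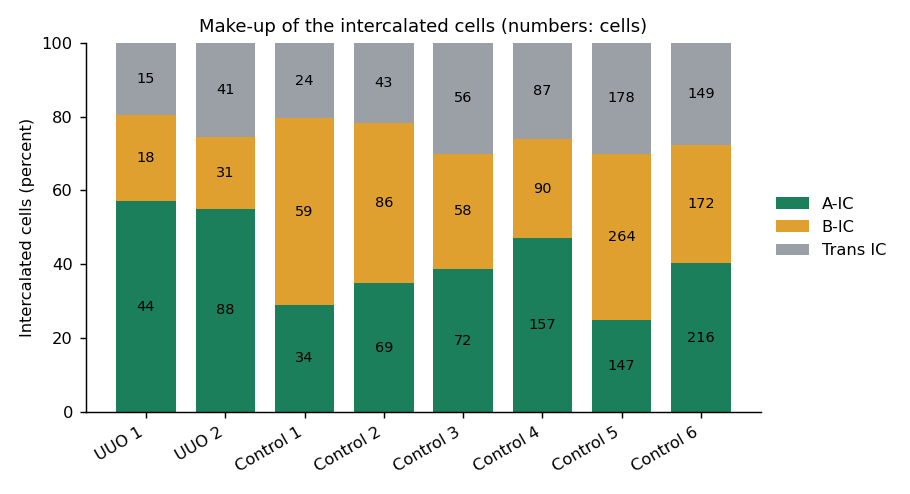
Make-up of the intercalated cells in each sample as stacked percentages, with the number of cells written in each segment. The A-IC segment covers 57.1% and 55.0% in UUO 1 and 2, and 24.96% to 47.0% in the Control samples.

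Set against each neighbouring class in turn, A-IC cells were relatively more numerous in UUO. There were 2.44 and 2.84 A-IC cells for each B-IC cell in UUO samples 1 and 2, against 0.576, 0.802, 1.55, 0.557 and 1.26 in Controls 1, 2, 3 with 4, 5 and 6. For each Trans IC cell there were 2.93 and 2.15 A-IC cells in UUO, against 1.42, 1.60, 1.60, 0.826 and 1.45 in Control. The groups did not overlap in either ratio, and the UUO values stood apart by more in the ratio to B-IC, the base-secreting counterpart. For each CNT cell there were 1.83 and 0.863 A-IC cells in UUO, against 0.206, 0.275, 0.631, 0.218 and 0.524 in Control. For each principal cell there were 2.44 and 1.33 in UUO, against 0.258, 0.476, 2.22, 0.313 and 0.597 in Control. The ratio to principal cells overlapped because the pooled Controls 3 and 4, at 2.22, lay above UUO 2.

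As log2 ratios, UUO exceeded Control by 1.58 for A-IC to B-IC, 0.89 for A-IC to Trans IC, 1.90 for A-IC to CNT and 1.69 for A-IC to CD PC. The first 3 reached the smallest exact permutation p of 0.0476, and the last had p = 0.143. With Benjamini-Hochberg adjustment over these 4 ratios and the intercalated share, 5 comparisons in all that share the same A-IC cells, the values were 0.0595 for the 4 at the smallest p and 0.143 for CD PC, so none passed 0.05. Passing would have needed all 5 at the smallest p. With Controls 3 and 4 as separate samples the exact adjusted p was 0.0446 for the intercalated share and for the ratios to B-IC, Trans IC and CNT, with differences of 1.21, 1.46, 0.87 and 1.77. Among the 4 libraries over 10000 cells the differences were 1.43, 1.64, 1.18 and 1.89, where an exact test of 2 against 2 cannot go below p = 0.333.

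The counts behind these ratios are small on the UUO side, where B-IC numbered 18 and 31 cells and Trans IC 15 and 41. Trans IC cells also held few molecules: their median was 1946 and 1413 UMIs in UUO samples 1 and 2 and 714 to 1815 in the Control samples. Trans IC cells under 1000 UMIs were 26.7% and 29.3% of the class in UUO 1 and 2, against 25%, 41.9%, 83.9%, 59.8%, 29.2% and 26.2% in Control samples 1 to 6, so Controls 1, 5 and 6 were level with UUO and Controls 2, 3 and 4 were higher. Restricting all classes to cells of at least 1000 UMIs, the differences in the ratios to Trans IC, B-IC and CNT were 0.75, 1.72 and 1.76. The exact adjusted p was 0.286, 0.119 and 0.159. Before adjustment the ratios to Trans IC (exact p 0.286) and CNT (0.0952) were no longer at the smallest p. The ratio to B-IC and the intercalated share (1.40) stayed there, at 0.0476.

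Molecules per A-IC cell overlapped between obstructed and Control kidneys. Median UMIs per A-IC cell were 3224 and 4115 in UUO samples 1 and 2, against 2922, 2588, 2792, 5449 and 3126 in Controls 1, 2, 3 with 4, 5 and 6. Both UUO values lay between Control 6 and Control 5, and Control 5, the library with the most UMIs per cell, stood far above the other Control samples. UUO was 1.12 times Control, a log2 difference of 0.17 (95% interval -0.50 to 0.84, limma adjusted p 0.629), while 2 of 19 classes (10.5%) were called higher. Median genes detected per cell were 1470 and 1688 in UUO and 1216 to 1927 in Control, a log2 difference of 0.18 (adjusted p 0.466), against 1 of 19 classes (5.26%) called higher. These intervals hold changes of either sign.

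The low end of the distribution was thin in the obstructed kidneys. A-IC cells under 1000 UMIs were 0 of 44 in UUO 1 and 2 of 88 (2.27%) in UUO 2. In Controls 1, 2, 5 and 6 they were 8.82%, 18.8%, 5.44% and 10.2% of the class, and in Controls 3 and 4 together 16.2%. The groups did not overlap in this share, which was looked at after the data were seen and was not tested. A fixed cut of 1000 UMIs makes no allowance for library depth. Median UMIs over all cells of a library were 2496 and 2584 in UUO 1 and 2. They were 1292 to 1726 in Controls 1 to 4 and 6, and 2944 in Control 5. The part of depth in this share was not tested. Lower quartiles of the A-IC cells were 2172 and 3096 UMIs in UUO and 1196 to 3301 in the 6 Control samples.

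Relative to other tubule cells of the same library, A-IC cells stood out less in UUO. Their median UMIs were 1.20 and 1.29 times those of the other tubular cells outside PT in UUO samples 1 and 2, against 2.15, 1.69, 2.40, 1.58 and 1.65 times in Controls 1, 2, 3 with 4, 5 and 6. The groups did not overlap, with a log2 difference of -0.59 (exact permutation p 0.0952, adjusted 0.238 over 5 per-cell comparisons). The comparison cells moved as well: their median was 2685 and 3188 UMIs in UUO, against 1165 to 3452 in Control, and Prolif PT and Profibrotic Tubules cells made up more of them in UUO 1. The difference depended on the cells compared with: it was -0.40 against all cells of the sample (exact p 0.0476, adjusted 0.119) and 0.06 against B-IC and Trans IC cells alone (exact p 0.857). A-IC medians were 0.910 and 0.715 times those of B-IC in UUO and 0.478 to 0.820 times in Control. They were 1.66 and 2.91 times those of Trans IC in UUO and 1.87 to 3.58 times in Control, so the groups overlapped in both.

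**Figure D4:**
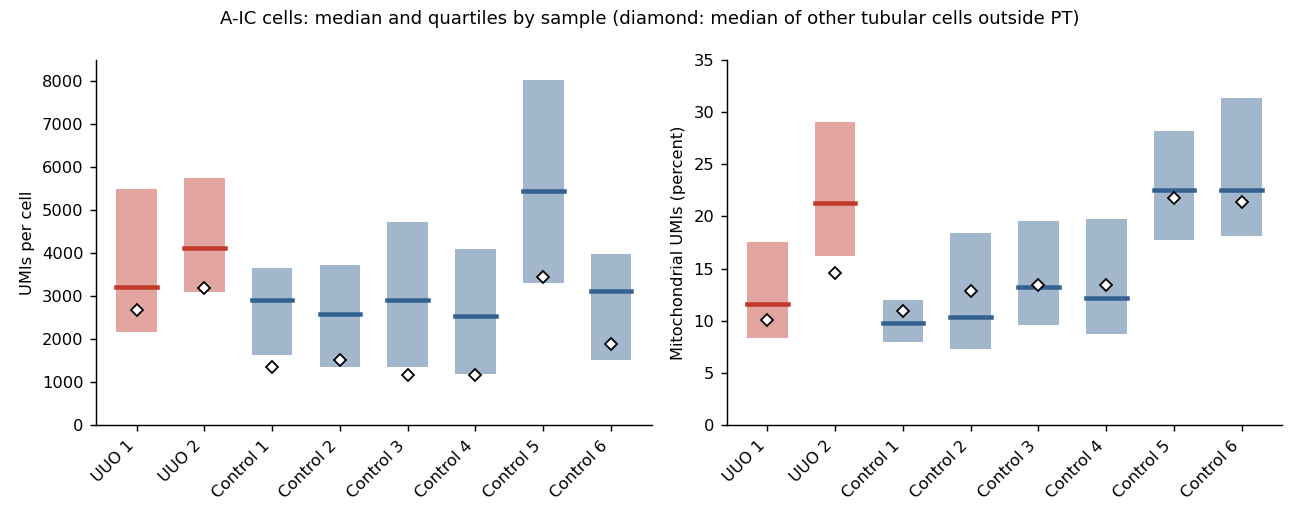
UMIs per A-IC cell (left) and percent of mitochondrial UMIs per A-IC cell (right) by sample, UUO red and Control blue. Boxes span the quartiles, lines are medians, and diamonds are medians of the other tubular cells outside PT (Controls 3 and 4 pooled); the mitochondrial medians are 11.7 and 21.3 in UUO 1 and 2 and 9.77 to 22.6 in Control.

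The mitochondrial share of A-IC molecules overlapped between the groups and varied widely between libraries of each. The median was 11.7% and 21.3% of UMIs in UUO samples 1 and 2, against 9.77%, 10.4%, 12.4%, 22.6% and 22.5% in Controls 1, 2, 3 with 4, 5 and 6. UUO 1 thus sat with the smaller Control libraries, and UUO 2 with Controls 5 and 6. The difference was 0.95 percentage points (95% interval -10.6 to 12.5, limma adjusted p 0.898), and 0 of 19 classes (0%) were called in either direction. With limma, A-IC had an unadjusted p of 0.851. In UUO 2 the A-IC median was the highest of the 27 classes with at least 20 cells. In UUO 1 it ranked 3 of 22 such classes, and in the Control samples it ranked between 4 and 7. In UUO 1 the cut of 20 cells left out CD PC (18 cells), B-IC (18) and Trans IC (15). Their medians were 16.4%, 4.14% and 11.6%. The CD PC median lay above that of A-IC, so the rank in UUO 1 depended on the cut.

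Set against the other tubular cells outside PT of the same library, the A-IC mitochondrial median was 1.56 and 6.68 percentage points higher in UUO samples 1 and 2. In Controls 1, 2, 3 with 4, 5 and 6 the gaps were -1.20, -2.45, -1.01, 0.76 and 1.05 points. The groups did not overlap, with a difference of 4.68 points at the smallest exact p of 0.0476. This difference did not pass after adjustment over 5 per-cell comparisons (0.238). Medians of the comparison cells were 10.1% and 14.63% in UUO samples 1 and 2, against 10.96% to 21.81% in Control. Averaged over samples, their median was 12.36% in UUO and 16.1% in Control, and that of A-IC was 16.48% and 15.53%. The comparison cells thus differed between the groups by more than A-IC did. The part played by their make-up was not tested. The difference in the gap was 7.24 without UUO 1 and 2.12 without UUO 2. Against B-IC and Trans IC cells alone it was 1.76 (exact p adjusted 0.794). A-IC cells with at least 10% mitochondrial UMIs were 63.6% and 88.6% of the class in UUO and 44.1% to 96.8% in Control, a log2 odds difference of -0.14 (exact p 0.905).

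Genes detected were also compared among A-IC cells of like depth, 1000 to 3000 UMIs. The medians were 1047 genes (19 cells) and 836 genes (18 cells) in UUO samples 1 and 2. In Controls 1, 2, 3 with 4, 5 and 6 they were 1106, 876, 846, 787 and 831 genes over 15 to 90 cells. Control 1 and UUO 1 gave the highest values, and the group difference of 52.1 genes lay within the spread between samples (exact permutation p 0.905) and was -53.6 without UUO 1.

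In the authors' embedding, which has coordinates only for cells outside PT, A-IC cells lay mostly among cells of their own class. PT could therefore be neither a neighbour nor a nearest class. The nearest class medians were those of B-IC and Trans IC, at distances of 2.44 and 2.54 embedding units, with principal cells at 7.73 and CNT at 9.26. Podocytes (4.805) and the endothelial class Endo (7.326) lay nearer than principal cells, so distance did not follow place along the tubule. Of the 15 nearest cells to each A-IC cell, 97.0% were A-IC, 2.16% Trans IC and 0.37% B-IC. By the same measure 84.9% of the neighbours of B-IC cells and 76.1% of those of Trans IC cells were of their own class. Trans IC cells had more B-IC (19.2%) than A-IC (3.20%) neighbours. Only 14 A-IC cells had a minority of A-IC neighbours, and their median was 1794 UMIs against 3337 in the other A-IC cells. Classes and embedding were made from the same cells, so these values describe the class and test nothing.

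**Figure D5:**
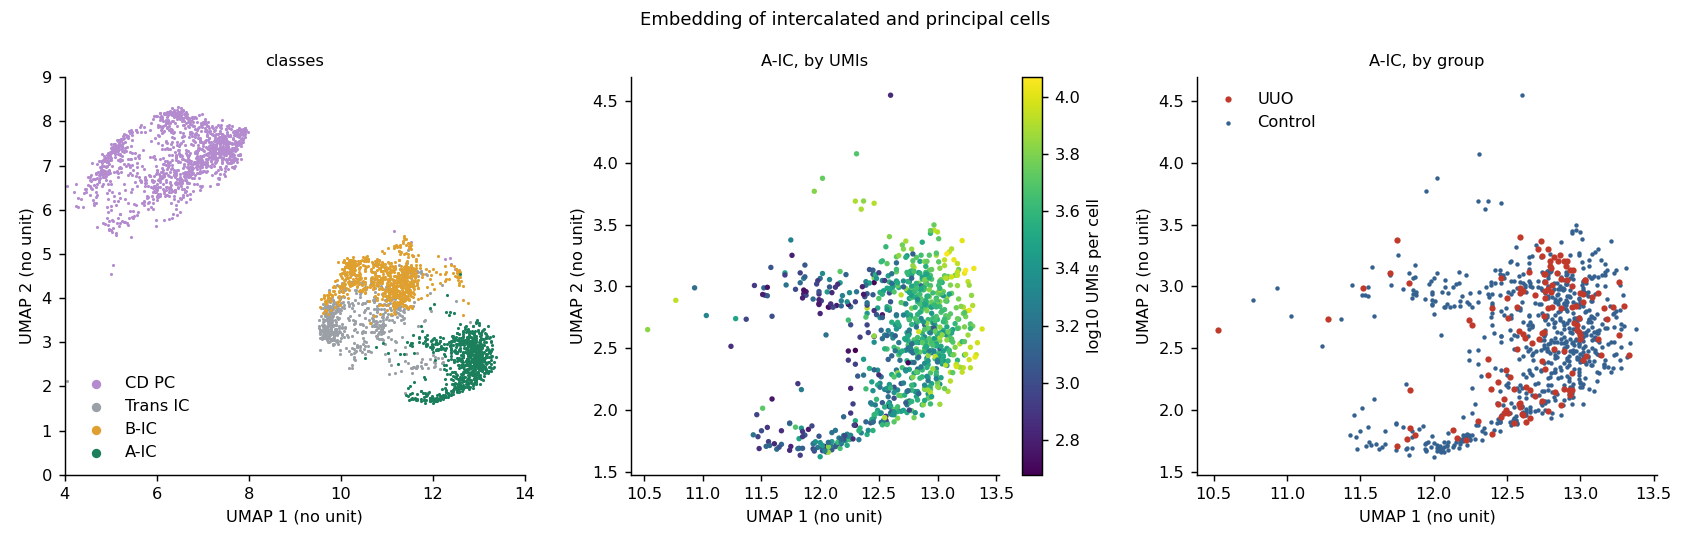
Deposited UMAP coordinates of intercalated and principal cells in the window that holds most of them (left), of A-IC cells shaded by log10 UMIs (middle) and of A-IC cells by group (right, UUO red over Control blue). Cells of few molecules lie to the left along UMAP 1, and UUO cells lie among the Control cells.

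Position within the A-IC group went with molecules per cell and with mitochondrial share. Across cells, the Spearman correlation of the first coordinate with UMIs was 0.40 to 0.78 in the 8 libraries taken singly, with 34 to 216 cells each. That of the second coordinate with mitochondrial percentage was -0.82 to -0.51. Cells of a library share its depth and are not replicates, and both sequencing depth and RNA content enter the UMI count, so these are descriptions. UUO and Control cells overlapped in position. The sample medians of the groups were 0.11 embedding units apart (exact permutation p 0.476), or 0.17 without UUO 1 and 0.04 without UUO 2, against a median distance of 0.48 units of A-IC cells from their own class median. Of the 15 nearest A-IC cells, 20.9% were UUO cells around UUO cells and 15.5% around Control cells, where UUO cells were 16.0% of the class.

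The part of A-IC cells in a library's molecules exceeded their part in its cells in every library. They gave 0.311% and 0.949% of the UMIs of UUO samples 1 and 2, against 1.61%, 1.37%, 5.23%, 5.99%, 1.43% and 2.26% of those of Control samples 1 to 6. Both UUO values lay below every Control value. By median UMIs, among classes with at least 20 cells in the library, A-IC ranked 4 of 22 and 8 of 27 in UUO 1 and 2. In the Control samples it ranked between 2 and 4, and B-IC ranked first in each. B-IC was not ranked in UUO 1, where its 18 cells had a median of 3542 UMIs, above the 3224 of A-IC.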

How the data were processed

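Per the labels' protocols, whole-kidney cells were barcoded and sequenced as 10x Chromium single-cell 3′ libraries. The submitters' processing notes name mm10, Seurat 4.0.1 and Cell Ranger 6.0.1, with no role for each. How cells were filtered and classes called is not stated there. Sample and class names are the authors', and doublets were left as the authors left them. UMIs and genes per cell are raw counts, not normalized, per the file headers. The mitochondrial value is a percent of a cell's UMIs, per the file headers. The deposited embedding coordinates are a score with no unit for the 25200 cells outside PT. Cells in the table have 298 to 2998 genes and up to 50.0% mitochondrial UMIs. No per-sample column was left out (0).

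Shares were taken per sample as log2((n + 0.5)/(N - n + 0.5)) and fitted with limma 3.58.1 (R 4.3.3) over all classes of a denominator, with Benjamini-Hochberg adjustment and a threshold of 0.05. Limma's variance prior took over fully for shares of all and of tubular cells. Those intervals, p-values and calls therefore rest on 1 variance shared by all classes and are not A-IC's own spread. Log2 sample medians of UMIs and genes and medians of the mitochondrial percent were fitted over 19 classes with at least 20 cells in 2 samples per group; A-IC had at least 34 in each. Single values were compared by two-sided exact permutation over samples. A-IC was described beside B-IC, Trans IC, CD PC and CNT. Members, comparisons and alternatives were chosen with earlier results of these data known. Functions were tested on simulated data. The depth was 4375942 to 56755823 UMIs per sample; a class with 0 cells in the smallest library could still be 0.133% of it (3 cells, counting error only).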

Additional observations from a re-analysis of the deposited data

Results flagged for a closer look

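By a Dixon test at the 95% level among the 5 Control samples, which by chance marks about 1 in 20 groups, 3 samples stood far from the others. The pooled Controls 3 and 4 were high in A-IC as a share of all cells (3.69%), as a share of tubular cells (4.47%) and per principal cell (2.22). Control 5 was high in median UMIs per A-IC cell (5449) and genes per A-IC cell (1927), and low in A-IC cells per Trans IC cell (0.826, or -0.28 on the log2 scale). Control 1 was high in genes per A-IC cell among cells of 1000 to 3000 UMIs (1106, from 15 cells). Control 5 is also the library with the highest median UMIs over all its cells, 2944.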

How the results depend on the processing

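No result was called with all samples, and the calls that alternatives added were these. A-IC was lower as a share of all cells with 8 separate samples (log2 odds -2.03), edgeR with TMM scaling (-2.14) and centred log-ratios (-1.76), and its range when each sample was left out was -2.56 to -1.05, with a call without UUO 2 or Control 5. Fits without a UUO sample leave that group 1 sample, which is assumed to vary like the Control samples, so their calls take no spread from UUO. As a share of tubular cells it was lower with 8 separate samples (-1.82) and in cells of at least 1000 UMIs (-1.81), and the sign turned with TMM scaling (0.64) and centred log-ratios (0.26). Leaving out each sample gave -2.45 to -0.71, with calls without UUO 2 and without Control 5 (-1.75). With 8 separate samples the intercalated share (1.21) and the ratios to B-IC (1.46), Trans IC (0.87) and CNT (1.77) passed, since 28 ways of choosing 2 samples allow a smallest p of 0.0357. These 5 composition comparisons kept their sign in all 15 alternatives each, from 0.67 to 2.44, as did the share outside PT in all 21.

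Per-cell results were not called under any alternative, and their signs were less stable. UMIs per cell turned in the libraries over 10000 cells (-0.18) and ran from -0.01 to 0.35 with samples left out. Mitochondrial percent turned in those libraries (-6.05) and with sample means (-0.42), and ran from -3.87 to 5.78. Relative UMIs turned against B-IC and Trans IC (0.06). With samples left out, genes at matched UMIs ran from -53.6 to 157.9, the relative mitochondrial gap from 2.12 to 7.24, the embedding shift from 0.04 to 0.17 and the log2 odds of cells with at least 10% mitochondrial UMIs from -1.20 to 0.91, which in the libraries over 10000 cells were -2.67. The causes were not tested. Samples 1 and 2 of each group share a number that no label calls a pairing, and class deviations of same-numbered samples correlated at -0.25 and -0.0037. Deviations of the 2 UUO samples mirror each other, so the 2 correlations are not independent checks of a pairing. A replicate block on these 4 samples turned genes at matched UMIs (-49.5) and the 10% mitochondrial odds (1.91), gave -1.33 for the share of all cells, and added no call.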
